A study of Canis lupus familiaris with 10 samples.

Results

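The 9 genes described here encode proteins that are made in the cytosol and imported into mitochondria. NDUFB7, NDUFS7, NDUFA10, UQCRQ, ATP5D and ATP5G1 are subunits of the oxidative phosphorylation complexes, and MRPL37, MRPL55 and MRPS11 are proteins of the mitochondrial ribosome. They are 9 of the 19856 genes in the count tables, and all 9 passed the filter of at least 10 reads in at least 1 sample, which 13577 genes passed. They were selected on the contrast of Post-ACTH against Pre-ACTH itself, because gene symbols were at hand only for genes that the published analysis of these dogs lists as changed. The higher level of the 9 genes after treatment was therefore given by their selection. It is described below, and the calls that tests made on it are given as counts beside those of all genes, with nothing read from them. Comparisons between the sexes were not used to select the genes and were tested. The paired test behind the selection did weigh the spread between dogs, though, and a treatment by sex difference is part of that spread.

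Visceral adipose tissue (VAT) of 5 adult Beagle dogs was sampled before treatment (Pre-ACTH) and again from the same animals after 25 weeks of tetracosactide (Post-ACTH), giving 5 pairs of RNA-seq libraries. Tetracosactide is a synthetic ACTH analog that drives the adrenal cortex to release cortisol. Osmotic pumps under the skin, exchanged at intervals of 4 weeks, delivered from 1.3 to 1.95 μg/kg each day at first and from 6 to 10 μg/kg each day in the end. The numbers 1 to 5 for the dogs follow the sorted animal IDs of the labels. Dogs 2 and 3 were female and dogs 1, 4 and 5 male. No dogs without pumps were part of the series, so the drug, the elapsed time and the earlier laparotomy cannot be told apart. VAT is a mixture of cell types, and in such bulk samples more cells of a type and more RNA per cell cannot be told apart either.

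In the inner mitochondrial membrane, complex I takes electrons from NADH and complex III passes them on to cytochrome c, and both pump protons across the membrane. ATP synthase lets the protons flow back through a rotating ring and makes ATP. A few core subunits of these complexes are encoded by mitochondrial DNA and are translated inside the organelle on mitochondrial ribosomes, whose proteins come from the nucleus. White adipocytes are poor in mitochondria beside brown adipocytes, but they need them for lipid synthesis and for the use of fatty acids.

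The libraries held from 8728330 to 14867529 counted reads, and the smallest was that of dog 3 before treatment. Values are given as normalized counts, for which each count was scaled by TMM factors to a library of average size. Normalized counts are not divided by transcript length, so the levels of different genes were not compared with each other. The log2 fold changes and their SEs come from edgeR's quasi-likelihood fit over all 13577 genes with the dog as a block, with Benjamini-Hochberg adjustment and FDR under 0.01 as the threshold. It was passed by 268 genes, of which 102 had the higher level in Post-ACTH. A symbol was at hand for 6 of the 79 nuclear respiratory chain subunits and for 3 of the 81 mitoribosomal proteins on the lists drawn up for this work. For complexes II and IV it was 0 of 4 and 0 of 12, so the 9 genes are no cross-section of the respiratory chain.

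NDUFB7 (ENSCAFG00000016258), an accessory subunit of the membrane arm of complex I, stood at 1076, 872, 822, 863 and 962 normalized counts before treatment in dogs 1 to 5. After treatment it stood at 1445, 1393, 1457, 1687 and 1502. The lowest Post-ACTH value lay 317 normalized counts above the highest Pre-ACTH value, the widest gap among the 9 genes. The group means were 919 ± 101 and 1497 ± 113 (SD, n = 5 dogs each), a 1.63-fold difference (log2 fold change 0.71, SE 0.09).

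NDUFS7 (ENSCAFG00000019529), a core subunit that carries the iron-sulphur cluster from which ubiquinone takes up its electrons, was measured at 1664, 1593, 1158, 1593 and 1534 normalized counts in Pre-ACTH. Dog 3 lay well below the other dogs there. In Post-ACTH the values were 2196, 2306, 2008, 1984 and 1789. Again the groups did not overlap, and dog 3 was level with dog 4. Its means of 1508 ± 201 and 2057 ± 201 (SD, n = 5) gave a log2 fold change of 0.45 (SE 0.10).

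NDUFA10 (ENSCAFG00000012591), an accessory subunit on the matrix side of complex I, stood at 1687, 1624, 1453, 1932 and 1939 normalized counts in Pre-ACTH and at 2333, 2258, 2615, 2257 and 2190.2 in Post-ACTH. The dogs were closer together after treatment, with a coefficient of variation of 7.16% against 12.1%. Dog 3 moved from the lowest to the highest place. The log2 fold change was 0.44 (SE 0.11), the smallest of the 9 genes.

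UQCRQ (ENSCAFG00000000919) encodes a small subunit of complex III. It was found at 991, 927, 811, 1041 and 1042 normalized counts before and at 1144, 1290.4, 1383, 1447 and 1277 after treatment, in the order of the dogs. The groups were separate, with dog 1 the lowest in Post-ACTH. The log2 fold change was 0.44 (SE 0.09).

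ATP5D (ENSCAFG00000019536), now also named ATP5F1D, encodes the delta subunit in the central stalk of ATP synthase. Its Pre-ACTH values were 1583, 1580.2, 1363, 1849.5 and 1740.2 normalized counts and its Post-ACTH values 2346, 2677, 2613, 2489 and 2139.9. The female dogs 2 and 3 were lowest before treatment and highest after it. From 1623 ± 184 to 2453 ± 216 normalized counts (SD, n = 5), the log2 fold change was 0.60 (SE 0.10).

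ATP5G1 (ENSCAFG00000016880), now also named ATP5MC1, encodes subunit c, which forms the rotating ring in the membrane part of ATP synthase. It stood at 881, 832, 751, 1082 and 1059 normalized counts in Pre-ACTH and at 1288, 1534, 1655, 1198 and 1185 in Post-ACTH. Dogs 4 and 5 changed little and dogs 2 and 3 much. The log2 fold change of 0.57 therefore had the widest error of the 9 genes (SE 0.16). ATP5MC2 and ATP5MC3 encode the same mature protein, and the handling of reads shared by gene copies is not given in the sources used here, so this value is uncertain.

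MRPL37 (ENSCAFG00000019035) and MRPL55 (ENSCAFG00000001176) belong to the large subunit of the mitochondrial ribosome. MRPL37 was measured at 718, 751, 497, 776 and 587 normalized counts in Pre-ACTH and at 896, 1028, 854, 1742 and 971 in Post-ACTH. The Post-ACTH library of dog 4 stood far above the other dogs, and the coefficient of variation was 33.3% in Post-ACTH, the highest of the 9 genes. The log2 fold change was 0.69 (SE 0.12) with dog 4 and 0.57 without it.

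MRPL55 lay at 457, 497, 444, 407 and 519.9 normalized counts in Pre-ACTH and at 574, 680.1, 617, 663 and 627 in Post-ACTH. The dogs resembled each other in both groups, with coefficients of variation of 9.59% and 6.56%. The log2 fold change was 0.45 (SE 0.09).

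MRPS11 (ENSCAFG00000011502), a protein of the small subunit, was the least counted gene, with 165 to 543 reads per library. It stood at 194, 247, 232, 249 and 258 normalized counts in Pre-ACTH and at 263, 328, 399, 506 and 372 in Post-ACTH. The groups were separated by only 5.58 normalized counts, between dog 1 after and dog 5 before treatment. Within dog 1 the value was higher after treatment as well, and the log2 fold change was 0.64 (SE 0.11).

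**Figure D1:**
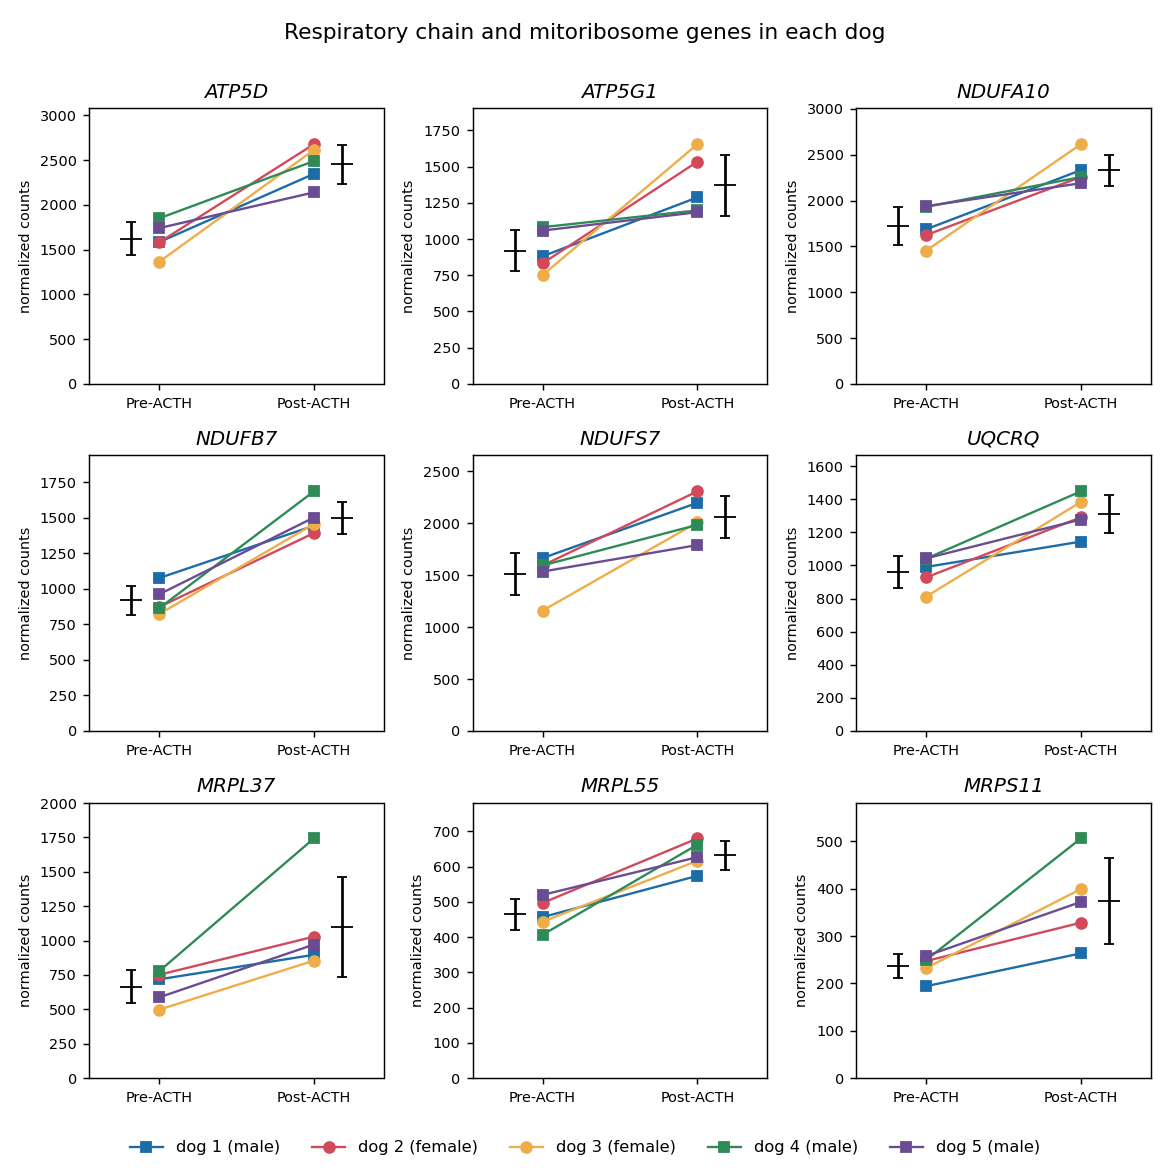
Normalized counts (vertical axes, each starting at 0) of the 9 genes in Pre-ACTH and Post-ACTH, with 1 line per dog, squares for male and circles for female dogs; black marks give the mean and SD of 5 dogs. Every line goes up, and dog 4 stands apart in MRPL37 at 1742 normalized counts.

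In the RefSeq gene table of another dog assembly (UU_Cfam_GSD_1.0), ATP5D overlaps CBARP and MRPL55 overlaps GUK1, whereas the other 7 genes overlap no annotated gene. The labels name a stranded library kit, but the strand setting of the counting is not given in the sources used here, so the counts of ATP5D and MRPL55 could include reads of these neighbours.

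All 9 genes had every Post-ACTH sample above every Pre-ACTH sample, which held for 4.30% of all genes tested. Higher values in all 5 dogs were found for all 9 genes and for 13.4% of all genes. At FDR under 0.01, 1 of the 9 genes, NDUFB7, was called higher, against 0.751% of all genes. At FDR under 0.05, 8 of 9 were called higher, against 4.84% of all genes, and ATP5G1 was the gene not called. With DESeq2 at FDR under 0.01, 9 of 9 were called higher, against 3.68% of all genes, as their choice by such a test requires. Because of that choice, nothing is read from these shares.

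The median log2 fold change of the 9 genes was 0.57, beside -0.0021 for all genes tested. In order of size it ran from NDUFB7 over MRPL37, MRPS11, ATP5D, ATP5G1, NDUFS7, MRPL55 and UQCRQ to NDUFA10. No neighbours in this order differed by more than the larger of their SEs. With RLE size factors, with total counts in place of TMM and with TMM factors that ignore ribosomal protein and collagen genes, the median was 0.57, 0.55 and 0.58. All 9 genes were higher in Post-ACTH under each of these scalings.

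The dogs differed in which of the genes moved most. In dog 3 the largest log2 ratio of Post-ACTH to Pre-ACTH was that of ATP5G1, 1.14, and dog 3 had the largest ratio of all dogs in ATP5D, ATP5G1, NDUFA10, NDUFS7 and UQCRQ. In dog 4 the largest was that of MRPL37, 1.16, and the smallest that of ATP5G1, 0.15. Dog 4 led in NDUFB7 and in all 3 mitoribosomal genes. The median ratio of the 6 respiratory subunits was therefore highest in dog 3, at 0.83, and that of the 3 mitoribosomal genes in dog 4, at 1.02.

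Dog 5 had the smallest ratio in 4 of the 9 genes and dog 1 in 3. Over the dogs, the median of the 6 subunits averaged 0.50 ± 0.22 (SD, n = 5). That of the 3 mitoribosomal genes averaged 0.62 ± 0.28 (SD, n = 5). Within dogs, the mitoribosomal median was the lower in dogs 1, 2 and 3 (0.33, 0.45 and 0.78 against 0.45, 0.60 and 0.83). In dogs 4 and 5 it was the higher (1.02 and 0.53 against 0.37 and 0.26). The sets were not tested against each other. Of the 9 Pre-ACTH minima, 7 belonged to dog 3, whose library was the smallest. Without dog 3 the median log2 fold change of the 9 genes was 0.45, and 0 of 9 genes passed FDR under 0.01 in the edgeR test, against 0.0887% of the 13528 genes then tested, in either direction. All 9 had an unadjusted p under 0.05, against 24.0% of these genes.

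**Figure D2:**
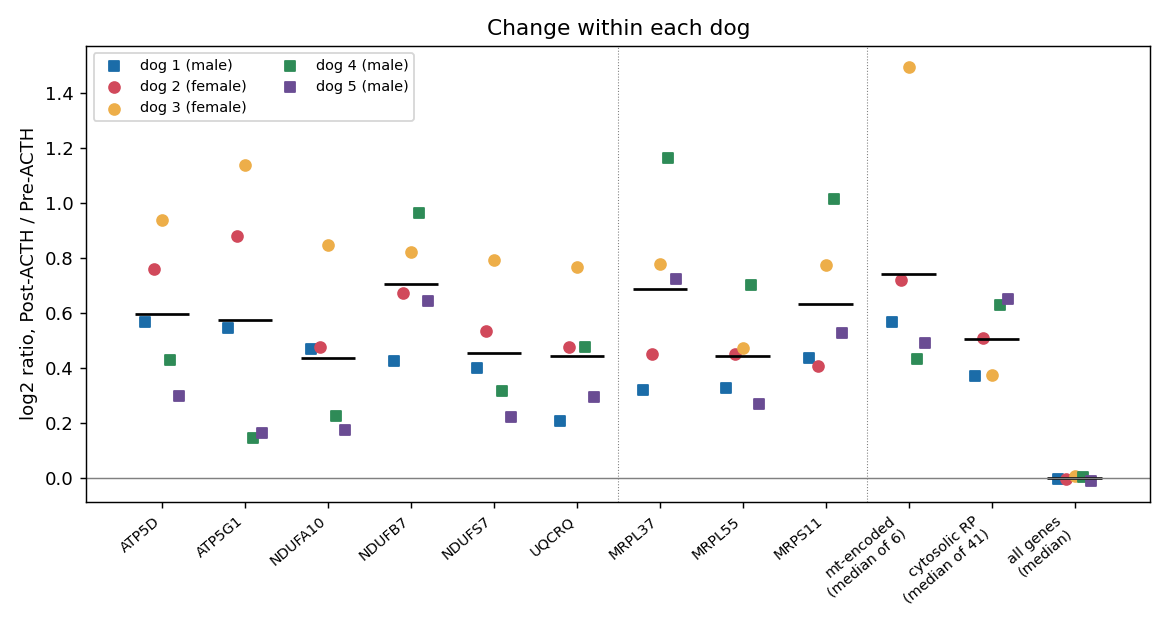
Log2 ratio of Post-ACTH to Pre-ACTH (vertical axis) in each dog for the 9 genes, and the median ratio of the mitochondrially encoded genes with a symbol (6), of the cytosolic ribosomal protein genes with a symbol (41) and of all genes tested; black bars are means of 5 dogs. Dog 3 leads in the 5 subunits other than NDUFB7, dog 4 in NDUFB7 and the mitoribosomal genes.

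Reads alone give the ratios a spread of their own, which is set beside the spread over dogs here. For ATP5G1 the ratios had an SD of 0.44 over the dogs, where the reads alone allow an SD of 0.06. For MRPL55 the values were closest, 0.17 against 0.09, and for MRPS11 they were 0.26 against 0.12. The SD allowed by the reads assumes that they are independent molecules and covers counting error only. The biological coefficient of variation that edgeR estimated around the fitted means had a median of 13.8% for the 9 genes, from 12% for MRPL55 to 18.5% for ATP5G1, beside 16.3% for all genes tested.

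After the mean of each group was subtracted, what remained was the spread within each group. It holds lasting differences between dogs and deviations between the samples of a dog. The selection of the genes did not use correlations between genes, but its paired test weighed part of this spread. ATP5G1 and ATP5D varied together (r = 0.88 over 10 samples of 5 dogs), as did ATP5G1 and NDUFA10 (r = 0.88). NDUFB7 did not join them, with r = 0.08 to ATP5D and r = -0.094 to ATP5G1. Among the 15 pairs of respiratory subunits the median was 0.56, among the 3 pairs of mitoribosomal genes 0.37, and among the 18 pairs across the groups of genes 0.16. These correlations describe the libraries, which share dogs and scaling factors. Without the samples of dog 3 the medians were 0.34, 0.41 and 0.049, so the order of the first and second changed. Without those of dog 4 they were 0.62, 0.41 and 0.34.

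**Figure D3:**
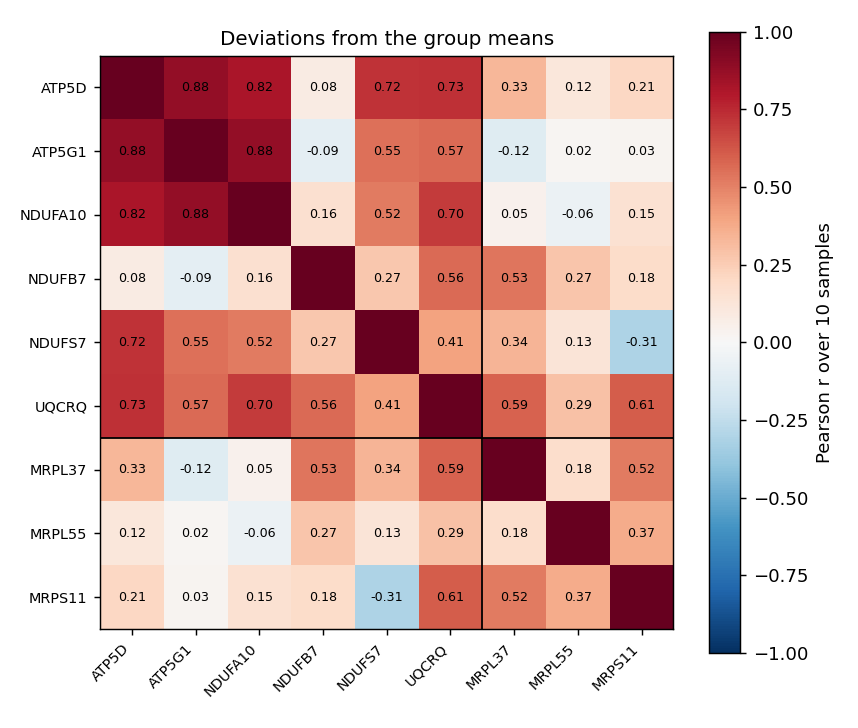
Pearson correlation over 10 samples between the 9 genes after each group's mean was subtracted from log2 CPM; black lines divide respiratory subunits from mitoribosomal genes. ATP5D, ATP5G1 and NDUFA10 form the darkest block (0.82 to 0.88), and NDUFB7 shares little with it.

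The sexes could be compared with 3 male and 2 female dogs. Before treatment, ATP5G1 averaged 791 normalized counts in the 2 females and 1007 in the 3 males, and after it 1595 and 1224. The change was smaller in males by a log2 difference of -0.73 (SE 0.19). The same sign was found for ATP5D at -0.42 (SE 0.16), NDUFA10 at -0.37 (SE 0.19), NDUFS7 at -0.35 (SE 0.16) and UQCRQ at -0.30 (SE 0.17). In these 5 subunits the ratios of both females lay above those of all males, an arrangement found in 9.40% of all genes. Dog 3 had the largest ratio in each of them and they varied together, so they are not 5 independent observations. For UQCRQ dogs 2 and 4 were all but equal, with ratios of 0.48 and 0.47.

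None of these differences passed the test. For the sex by treatment term, 0 of 9 genes and 0% of all genes passed FDR under 0.01, and all 9 adjusted p-values were 1 (edgeR quasi-likelihood test, blocked by dog). At an unadjusted p under 0.05, ATP5G1 and ATP5D passed, 2 of 9, against 3.20% of all genes. DESeq2 called 0 of 9 at FDR under 0.01, against 0.0368% of all genes. NDUFB7 and the mitoribosomal genes lay near 0 in this contrast, at -0.07 (SE 0.20) for NDUFB7, 0.12 (SE 0.27) for MRPL37, -0.03 (SE 0.19) for MRPL55 and 0.07 (SE 0.25) for MRPS11. These errors do not show that the sexes responded alike. Without dog 3 a single female remained, and the values were -0.58 for ATP5G1, -0.31 for ATP5D, -0.20 for NDUFS7, -0.17 for NDUFA10 and -0.13 for UQCRQ. For NDUFS7, NDUFA10 and UQCRQ the difference thus shrank by more than 1.5 times without dog 3, and 0 of 9 genes then had an unadjusted p under 0.05.

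Before treatment, males were higher than females by 0.35 (SE 0.13) on the log2 scale in ATP5G1 and by 0.27 (SE 0.12) in NDUFA10. The other 4 subunits had values from 0.19 to 0.24. The SEs and p-values of this contrast come from a fit of all 10 samples that takes those of a dog as independent. In this contrast too, 0 of 9 genes and 0% of all genes passed FDR under 0.01 (lowest adjusted p of the 9 genes 0.951, ATP5G1, edgeR quasi-likelihood test), and 1 of 9 had an unadjusted p under 0.05, against 5.10% of all genes. DESeq2 again called 0 of 9, against 0.184% of all genes. Both contrasts use the same Pre-ACTH samples, so a low Pre-ACTH value in a female enters both. Without dog 3 the Pre-ACTH difference in NDUFS7 was -0.0092, where it was 0.21 with all dogs. The other 5 subunits then had values from 0.11 in ATP5D to 0.26 in ATP5G1.

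**Figure D4:**
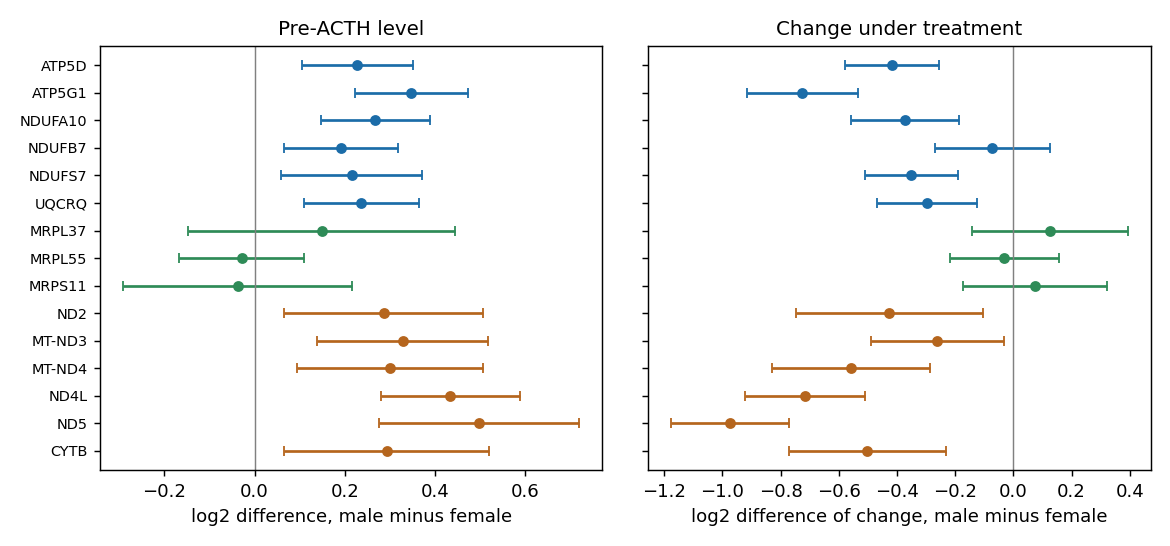
Male minus female difference on the log2 scale (horizontal axes, bars are SE of the edgeR fit) in the Pre-ACTH level and in the change under treatment, for the 6 respiratory subunits (blue), 3 mitoribosomal genes (green) and 6 mitochondrially encoded genes (brown). All brown and blue points lie right of 0 before treatment and left of 0 in the change. Before treatment, the green points lie at 0.15 (SE 0.30) for MRPL37, -0.03 (SE 0.14) for MRPL55 and -0.04 (SE 0.25) for MRPS11. In the change, blue NDUFB7 lies near 0 together with the green points.

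Of the 13 protein genes of mitochondrial DNA, which encode the partners of the nuclear subunits in complexes I, III and IV and ATP synthase, 6 had a symbol. ND2, MT-ND3, MT-ND4, ND4L and ND5 encode membrane subunits of complex I and CYTB encodes cytochrome b of complex III. Their log2 fold changes ran from 0.48 in MT-ND3 to 0.89 in CYTB, and they too came from the list of changed genes. In the edgeR test 0 of 6 were called higher at FDR under 0.01 and 4 of 6 at FDR under 0.05, against 0.751% and 4.84% of all genes. All 6 had an unadjusted p under 0.05, against 29.0% of all genes in either direction, and DESeq2 called all 6 higher, against 3.68%. As these genes were taken from the list of changed genes, nothing is read from the shares.

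CYTB stood at 4585, 4598, 2733, 4982 and 3914 normalized counts before and at 7346, 7808, 8381, 8373 and 6074 after treatment. Dog 3 was lowest before and highest after it, as in NDUFA10. MT-ND3 overlapped between the groups, with a highest Pre-ACTH value of 4700 and a lowest Post-ACTH value of 4470. ND5 overlapped as well, with 4569.6, 3869, 2524, 5217 and 3755 before and 5987, 7739, 6741, 5549.9 and 4398 after treatment. Its treatment by sex difference was -0.97 (SE 0.20), with the sign seen in ATP5G1, and its adjusted p was 1 as well (edgeR). Dog 3 had a median ratio of 1.5 over the 6 genes, and the other dogs had medians from 0.43 to 0.72. Dog 3 therefore led in the mitochondrially encoded genes as it did in 5 of the nuclear subunits.

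Among other mitochondrial genes on the lists, all again from the list of changed genes where a symbol was at hand, 1 of 9 mitochondrial translation factors, 3 of 13 enzymes of the TCA cycle and 1 of 11 import and cristae genes had a symbol. IDH2 is the mitochondrial NADP-dependent isocitrate dehydrogenase. It was the 1 gene of these 5 called higher at FDR under 0.01 by edgeR, against 0.751% of all genes. Because these genes came from the list of changed genes, nothing is read from the call. IDH2 went from 514, 400.1, 428, 648 and 602 normalized counts in Pre-ACTH to 927, 1106, 1042, 1003 and 972 in Post-ACTH. No value overlapped, as in 4.30% of all genes tested, and the log2 fold change was 0.98 (SE 0.14). The female dogs were lowest before treatment and highest after it, with a treatment by sex difference of -0.65 (SE 0.16, adjusted p = 1, edgeR).

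TUFM, the elongation factor of mitochondrial translation, had a log2 fold change of 0.40 (SE 0.09) and IMMT, a protein of the cristae junctions, one of 0.41 (SE 0.08). In both the groups overlapped, unlike in the 9 genes. SUCLG1, a subunit of succinyl-CoA ligase in the TCA cycle, stood at 0.48 (SE 0.08), and its groups overlapped too. These 3 genes missed FDR under 0.01 in the edgeR test and passed it with DESeq2. At that threshold edgeR called 0.751% of all genes higher and DESeq2 3.68%, and nothing is read from the calls here either. Regulators of respiratory genes such as PPARGC1A, NRF1, GABPA, TFAM and ESRRA, and UCP1 of brown adipocytes, had no symbol in the list and were not analysed here.

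The 41 cytosolic ribosomal protein genes with a symbol, drawn from the same list, had a median log2 fold change of 0.50. Their median ratio was 0.37 in dog 1, 0.51 in dog 2, 0.38 in dog 3, 0.63 in dog 4 and 0.65 in dog 5. Dogs 4 and 5 were thus highest in the cytosolic ribosomal proteins, whereas dogs 2 and 3 were highest in the 6 respiratory subunits. The difference between these patterns was not tested.

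The levels of cell type markers also differed between the groups. A marker had a symbol only if it was on the list of changed genes, so its change was given by that choice. Of 8 adipocyte markers 1 had a symbol, LIPE, the hormone-sensitive lipase. Its Pre-ACTH values ran from 19596 to 25067 normalized counts and its Post-ACTH values from 27688 to 33574, without overlap, with a log2 fold change of 0.48 (SE 0.11). Other defining markers of adipocytes were not analysed here. Of 7 fibroblast and progenitor markers 5 had a symbol, 5 passed FDR under 0.05 as lower and 3 of these FDR under 0.01 (edgeR), against 6.28% and 1.22% of all genes. Their summed level was 792 to 2230.3 CPM in Pre-ACTH and 354 to 556 CPM in Post-ACTH.

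Of 6 macrophage markers 3 had a symbol, with a sum of 75.3 to 159 CPM in Pre-ACTH and 38.2 to 88.8 CPM in Post-ACTH. At FDR under 0.05 2 of them passed as lower and at FDR under 0.01 1 (edgeR), against 6.28% and 1.22% of all genes. CSF1R, which held most of these reads, was not called at either threshold and was higher after treatment in dog 5. CCR2 held 0 to 6 reads in Post-ACTH. Of 4 mast cell markers 2 had a symbol, with 1.27 to 3.26 CPM in Pre-ACTH and 0 to 0.249 CPM in Post-ACTH, where the library of dog 4 held no read of either gene. Of 4 mural markers 2 had a symbol, with a sum of 194 to 242 CPM in Pre-ACTH and 153 to 179 CPM in Post-ACTH. They went opposite ways, with log2 fold changes of -0.74 (SE 0.07) for PDGFRB, lower in all 5 dogs, and 0.89 (SE 0.29) for MYH11, higher in 4 of 5 dogs and not called by edgeR. Of 6 markers of skeletal muscle, a tissue rich in mitochondria, only CKM had a symbol. It lay at 2.77 to 16.4 CPM in Pre-ACTH and 43.3 to 142 CPM in Post-ACTH. CKM was highest after treatment in dog 3 and lowest in dog 4, and it correlated with the mean of the 9 genes at r = 0.78 as measured and at r = -0.47 after subtraction of the group means. The part of the cell mixture in the higher levels of the 9 genes was not tested.

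The pattern of the 9 genes over the 10 samples was compared with that of 13568 other genes, by the Pearson correlation with the mean of the 9 centred log2 CPM values. The 5 most alike genes with a symbol were CHCHD2 (r = 0.97, log2 fold change 0.40), FKBP5 (r = 0.97, log2 fold change 2.21), RPS21 (r = 0.97), PHB2 (r = 0.96) and WNK3 (r = 0.96). They ranked 1, 2, 3, 6 and 9 among all genes. CHCHD2 and PHB2 encode mitochondrial proteins, FKBP5 is a classic target of the glucocorticoid receptor and RPS21 is a protein of the cytosolic ribosome. Much of this likeness is the difference between the groups, and symbols exist only for genes with such a difference.

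After the group means were subtracted, the most alike genes with a symbol included TBRG4 (r = 0.88), SSC5D (r = 0.87), FKBP5 (r = 0.86) and RHOH (r = 0.82), at ranks 23, 36, 41 and 82 of all genes. FKBP5 was thus the gene named under both measures. TBRG4 encodes a mitochondrial RNA-binding protein. On this scale ND5 stood at r = 0.64, TUFM at 0.69, IDH2 and IMMT at 0.62 and RPL3 of the cytosolic ribosome at -0.11, beside a median of 0.0071 over all other genes. IDH2, ND5, TUFM, IMMT, CKM and RPL3 were picked for this list by role.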

How the data were processed

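RNA-seq of VAT from 5 dogs before and after treatment was analysed. The authors deposited raw counts per Ensembl gene, 1 table for each sample, obtained from trimmed reads with STAR, featureCounts and the build CanFam3.1, and not normalized. Tool versions, annotation release and strand setting are not given in the sources used here. Groups, dogs and sexes came from the sample labels. Symbols were taken from the supplementary list of changed genes (1079 of 1190 genes have one). The RefSeq gene table held no Ensembl IDs and served for names and neighbouring genes alone.

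The 9 genes and the gene lists were chosen with earlier results of these data known. Named besides the 9 genes are the list members with a symbol and the 5 most alike genes under each measure, except for genes that are not reported here.

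Counts were fitted with edgeR 4.0.16 in R 4.3.3 (TMM factors, glmQLFit, glmQLFTest) over the genes that reached 10 reads in any sample. The dog entered as a block, as in the study's methods. The fit was first tried on simulated data, with changes larger than any found in the 9 genes. That trial therefore does not cover changes of their size. Sex by treatment was a term added to this fit, and sexes before treatment were compared in a fit of sex and treatment without the dog. The latter used all 10 samples and took those of a dog as independent, so its SEs and p-values are approximate. Log2 CPM used a prior count of 2. SEs were derived from the fold change and F. Same-numbered samples come from the same dog, and their deviations from the group means correlated at 0.077 to 0.41. The FDR was that of Benjamini and Hochberg, with a threshold of 0.01. The labels name a stranded mRNA kit, whereas the study's methods describe depletion of ribosomal RNA. Alternatives were DESeq2 1.42.0, limma-voom (limma 3.58.1), other scalings, filters and thresholds, a fit without the dog and fits without each dog; the correlations without dogs 3 and 4 were added after seeing the data. Total counts, 8728330 to 14867529 per sample, leave counting error below the spread between dogs for all 9 genes.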

Additional observations from a re-analysis of the deposited data

Results flagged for a closer look

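Of 27 sets of 5 values examined (the 9 genes in Pre-ACTH, in Post-ACTH and as ratios within dogs), 2 held a sample far from the others by Dixon's criterion. Chance sets apart about 1 in 20 such sets. NDUFS7 in the Pre-ACTH library of dog 3 stood at a log2 CPM of 6.48, where the next dog stood at 6.89, and this gap was 0.777 of the group's range. This library was the smallest of the series and held the lowest Pre-ACTH value in 7 of the 9 genes. MRPL37 in the Post-ACTH library of dog 4 stood at a log2 CPM of 7.07, where the next dog stood at 6.31, a gap of 0.740 of the range. In the same library MRPS11, NDUFB7 and UQCRQ were also the highest of their group. The causes were not tested.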

How the results depend on the processing

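All 9 genes were higher in Post-ACTH under every alternative run. The number called at FDR under 0.01 was 1 in the edgeR fit, 9 with DESeq2 and 2 without the replicate block, where ATP5D joined NDUFB7. At FDR under 0.05 it was 8. With each dog left out in turn it lay between 0 and 1, with 0 without dogs 2, 3, 4 or 5, and the median log2 fold change lay between 0.45 (without dog 3) and 0.66 (without dog 5). Of the 11 other mitochondrial genes with a symbol, 1 was called in the edgeR fit, 8 at FDR under 0.05, 11 with DESeq2, 2 with limma-voom, 3 without a low-count filter, 3 without the replicate block and 0 with any dog left out. Over all 13577 genes, in either direction, edgeR called 268, DESeq2 1180, limma-voom 345 and edgeR at FDR under 0.05 1509. Without the replicate block edgeR called 262, and without a low-count filter 438 of 16833 genes. As the 9 and the 11 genes came from the list of changed genes, nothing is read from their counts. Without dog 1 edgeR called 318 of all genes, without dog 2 1, without dog 3 12, without dog 4 117 and without dog 5 23. The causes were not tested. In both contrasts of the sexes the count stayed at 0 of 9 under all alternatives, and no paired analysis was possible for the Pre-ACTH contrast because sex lies between dogs. The treatment by sex value of ATP5G1 ran from -0.86 to -0.58 with single dogs left out. Depth limits MRPS11 most, with 165 reads in its lowest library.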
